A study of Homo sapiens with 9 samples.

Results

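RNA-seq values were examined for 10 enzyme genes of de novo nucleotide synthesis in HepG2 cells with glutamine (Gln) added or withdrawn. The 10 genes were chosen by name, as purine and pyrimidine steps that do not take the Gln amide, and all 10 were found among the 22587 genes of the deposited table. They are PRPS1 and PRPS2, which make phosphoribosyl pyrophosphate (PRPP), GART, PAICS, ADSL and ATIC, which act between PRPP and inosine monophosphate (IMP), IMPDH1 and IMPDH2, which oxidise IMP to xanthosine monophosphate, and DHODH and UMPS, which carry dihydroorotate to uridine monophosphate (UMP).

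Cells build purine nucleotides stepwise on the ribose phosphate of PRPP, and IMP is the branch point from which AMP and GMP are made. Pyrimidines are built the other way round, since the ring is closed first and PRPP is added to the finished orotate. Gln donates amide nitrogen to both pathways at steps carried out by other enzymes (PPAT, PFAS, GMPS, CAD and the CTP synthases), so the 10 enzymes described here sit before, between or after the amide-using steps. Proliferating tumor cells of the liver rely on these pathways for RNA and DNA precursors.

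HepG2 is a human liver tumor line, kept here in high-glucose DMEM with 10% fetal bovine serum. The series has 9 libraries of total RNA in 3 groups of 3, namely cells with Gln added, cells deprived of Gln for 12 h and cells deprived of Gln for 24 h. The labels give GlutaMAX, a dipeptide source of Gln, as the supplement of the Gln-added cultures, whereas the treatment text places it in the Gln-free medium of the deprived cultures, and which of them is right was not settled here. Nothing states that the 3 libraries of a group came from separate cultures, so every p-value measures the spread between these libraries, which may be technical. The 12 h and the 24 h comparison use the same 3 Gln-added libraries. No time is given for these, so the length of deprivation and the time in culture cannot be told apart.

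Values were deposited as FPKM, fragments scaled for gene length and sequencing depth. Between 29595229 and 36230245 fragments per library were assigned to genes, with 17998 to 18594 genes above 0. All 8 liver markers were detected in every library, with group means from 15.3 FPKM (FOXA2) to 3831 FPKM (ALB). In the Gln-added, 12 h and 24 h groups the means were 3831, 3350 and 3342 FPKM for ALB, 313, 252 and 219 FPKM for AFP, 1339, 1042 and 1007 FPKM for APOA1 and 972, 866 and 874 FPKM for SERPINA1. They were 15.3, 23.1 and 25.3 FPKM for FOXA2, 56.0, 59.7 and 52.7 FPKM for HNF4A, 821, 858 and 826 FPKM for APOB and 18.1, 17.4 and 16.8 FPKM for TTR. Of the markers of other cell types, fibroblast COL1A1 stayed between 0 and 0.0171 FPKM, PDGFRB between 0.113 and 0.775 FPKM and endothelial PECAM1 between 0.0900 and 0.343 FPKM. PDGFRB also moved with the groups, with means of 0.156, 0.385 and 0.667 FPKM, and the part of these markers in the results was not tested.

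The question put to the 10 genes was whether their mRNA changed when Gln was withdrawn. Most fell and GART, the trifunctional enzyme of early purine synthesis, rose. At 12 h, 7 of the 10 were lower (PRPS1, PRPS2, PAICS, ATIC, IMPDH1, DHODH and UMPS) and GART was higher than with Gln added, at a Benjamini-Hochberg adjusted p under 0.05 in limma over 11880 genes. In that comparison 31% of all genes tested were lower and 29.1% were higher. The same number, 7 of 10, was lower at 24 h (PRPS1, PRPS2, PAICS, ADSL, ATIC, DHODH and UMPS), with GART again higher, against 31.7% of all genes lower and 33% higher. IMPDH2 passed the test at neither time.

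All 10 genes passed the filter on low values. The median log2 fold change of the 10 was -0.24 at 12 h and -0.24 at 24 h, beside -0.02 and 0.01 over all genes tested. The libraries of the 2 groups did not overlap for 9 of the 10 genes at 12 h and for 8 of the 10 at 24 h, where 67.2% and 69.9% of all genes tested did not overlap in either direction. In cultures measured in bulk, fewer cells of a type and less RNA per cell cannot be told apart, and FPKM state each gene relative to all others in its library. Fold changes are on the log2(FPKM + 0.1) scale throughout, ratios are between group means of FPKM, and values are listed in the order of replicates 1, 2 and 3.

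**Figure D1:**
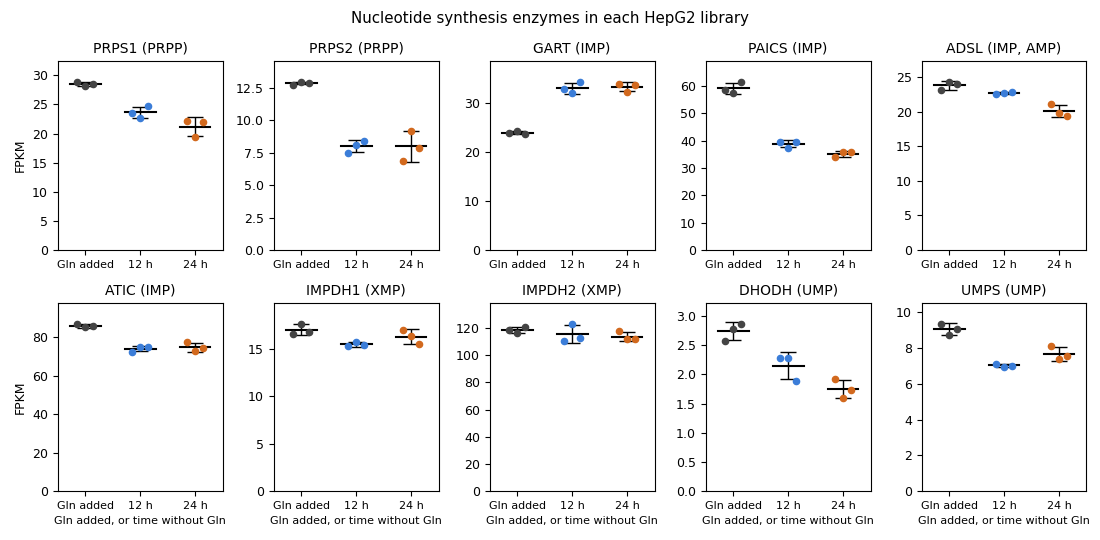
FPKM (vertical axes, from 0) of the 10 enzyme genes in each of the 9 libraries, by group, with the mean (long bar) and SD (whiskers) of 3 libraries and the product of the step in brackets. GART is the gene whose deprived libraries lie above the Gln-added ones (32.1 to 34.3 against 23.6 to 24.3 FPKM), and PAICS and PRPS2 show the widest gaps downward.

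The PRPP synthetases fell together. PRPS1 and PRPS2 encode the isoforms that transfer pyrophosphate from ATP to ribose 5-phosphate, and both purine and pyrimidine synthesis draw on their product. PRPS1 (chrX:107628428-107651993, plus strand, GRCh38) measured 28.8, 28.2 and 28.5 FPKM with Gln added, 23.5, 22.7 and 24.7 FPKM at 12 h and 22.2, 19.4 and 22.0 FPKM at 24 h. All 6 deprived libraries were below all 3 Gln-added ones, and the 24 h libraries lay below those at 12 h. Its mean was 0.829 of the Gln-added mean at 12 h (log2 fold change -0.27, SE 0.055, limma adjusted p = 0.00152) and 0.744 of it at 24 h (-0.43, adjusted p = 4.93e-05).

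PRPS2 (chrX:12791355-12824222, plus strand) stood at 12.8, 12.9 and 12.9 FPKM with Gln added, at 7.49, 8.11 and 8.43 FPKM at 12 h and at 6.85, 9.20 and 7.89 FPKM at 24 h. The deprived libraries lay apart from the Gln-added ones, and replicate 2 of the 24 h group was the highest of the 6. The mean fell to 0.623 of the Gln-added mean at 12 h (log2 fold change -0.68, SE 0.089, limma adjusted p = 7.81e-05) and to 0.621 at 24 h (-0.69, adjusted p = 5.27e-05). The spread among the 24 h libraries, a coefficient of variation of 14.7%, exceeded the 3.83% that counting 608 to 758 fragments gives.

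The summed level of both PRPS genes was 41.4 ± 0.214 FPKM in the Gln-added group, 31.7 ± 1.25 FPKM after 12 h and 29.2 ± 0.683 FPKM after 24 h (SD, n = 3). Groups did not overlap in any of the 3 comparisons, and each exact permutation p was 0.1, the smallest that 3 libraries against 3 allow. PRPS2 made up 30.7%, 31.4% and 31.2% of this sum with Gln added and 24.2%, 26.3% and 25.5% at 12 h. The share was thus lower in all 12 h libraries, with a difference of means of -5.78 percentage points (exact permutation p = 0.1). At 24 h the share was 23.6%, 32.2% and 26.4%, and replicate 2 lay above every Gln-added library, so the difference of -3.70 points did not stand out from the spread (exact permutation p = 0.4). Without replicate 2 of the 24 h group it was -6.11 points and without replicate 1 of that group -1.80 points.

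The steps from PRPP to IMP held both the gene that rose and the gene that fell furthest at 24 h. GART adds glycine, transfers a formyl group and closes the imidazole ring. PAICS carboxylates that ring and joins aspartate to it, and ADSL then releases fumarate, a reaction it repeats on the way to AMP. ATIC adds the last formyl group and closes the purine ring.

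GART (chr21:33503931-33543491, minus strand) measured 24.0, 24.3 and 23.6 FPKM with Gln added, 32.9, 32.1 and 34.3 FPKM at 12 h and 33.9, 32.4 and 33.8 FPKM at 24 h. The 6 deprived libraries were all above the Gln-added ones, and the 12 h and 24 h libraries overlapped. The mean rose to 1.38 times the Gln-added mean at 12 h (log2 fold change 0.46, SE 0.038, limma adjusted p = 2.46e-06) and 1.39 times at 24 h (0.48, adjusted p = 1.38e-06). The 12 h change was above that of 88.8% of the genes tested and the 24 h change above that of 85.9%. The table has a single value for the gene, so the long GART transcript and the known short form that encodes only the first enzyme domain cannot be told apart.

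PAICS (chr4:56435741-56464578, plus strand) went the other way, from 58.6, 57.5 and 61.3 FPKM with Gln added to 39.6, 37.4 and 39.4 FPKM at 12 h and 33.9, 35.7 and 35.8 FPKM at 24 h. The 3 groups formed 3 separate ranges, each lower than the one before. PAICS stood at 0.656 of the Gln-added mean at 12 h (log2 fold change -0.61, SE 0.041, limma adjusted p = 5.26e-07), and at 24 h its change was -0.75 (adjusted p = 7.17e-08). Only 8.04% of the genes tested had a lower fold change at 12 h and 5.95% at 24 h. With 9004 to 16724 fragments per library it was the most deeply counted of the 10 genes. GENCODE v44 lists 7 PAICS pseudogenes, none of them a row of the table, and how reads shared with them were handled is not given in the sources used here.

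GART and PAICS, whose enzymes act close together in the pathway, thus changed in opposite directions. Within each library the ratio of PAICS to GART FPKM was 2.44, 2.37 and 2.59 with Gln added, 1.20, 1.17 and 1.15 at 12 h and 0.998, 1.10 and 1.06 at 24 h. Neither deprived group overlapped with the Gln-added group, and the 24 h libraries were also below all 12 h libraries. The mean ratio was 2.47 ± 0.115 with Gln, 1.17 ± 0.0285 after 12 h and 1.05 ± 0.053 after 24 h without it (SD, n = 3; exact permutation p = 0.1 for each comparison, the smallest possible). Across the 9 libraries log2 GART and PAICS had a Pearson correlation of -0.972, a description only, because the points share their groups.

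**Figure D2:**
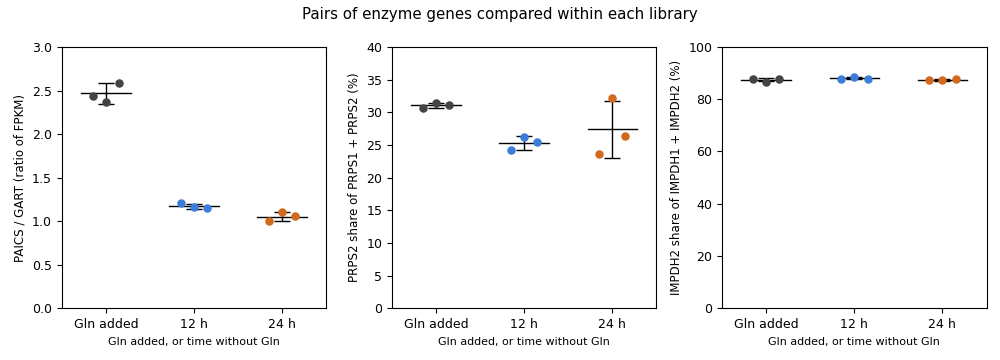
Within-library comparison of gene pairs, with points for libraries, long bars for means and whiskers for the SD of 3 libraries: the PAICS to GART ratio of FPKM, the PRPS2 share of both PRPS genes and the IMPDH2 share of both IMPDH genes (percent). The PAICS to GART ratio lies at 2.37 to 2.59 with Gln added and at 0.998 to 1.20 in the deprived libraries, the mean IMPDH2 share lies between 87.4% and 88.2%, and 1 of the 24 h libraries has the highest PRPS2 share of all 9 (32.2%).

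By their RefSeq starts, both of these genes begin back to back with a neighbour on the opposite strand. The sequence between the starts is the stretch shared by PAICS with PPAT, the first committed enzyme of purine synthesis. For GART it is shared with SON, a splicing factor gene. The bases are from the RefSeq promoter table (GRCh38.p14), 5′ to 3′ toward the named enzyme gene. The PAICS stretch is chr4:56435616-56435751 on the plus strand, 136 bases with 75% G or C, and GENCODE places the start of PAICS just inside it. The GART stretch is chr21:33542893-33543037 on the minus strand, 145 bases with 66.2% G or C, and capitals mark CCAAT on either strand. It lies within the GART gene as GENCODE draws it.
PPAT to PAICS: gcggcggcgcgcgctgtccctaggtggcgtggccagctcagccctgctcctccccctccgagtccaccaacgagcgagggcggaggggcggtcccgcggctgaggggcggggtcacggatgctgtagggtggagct
SON to GART: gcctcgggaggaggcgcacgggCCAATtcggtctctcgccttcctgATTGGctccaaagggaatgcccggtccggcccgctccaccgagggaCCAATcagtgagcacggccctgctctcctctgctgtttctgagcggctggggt

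The neighbours moved in the same direction as their partner and by less. PPAT measured 17.9, 17.7 and 17.4 FPKM with Gln added, 15.1, 13.6 and 16.1 FPKM at 12 h and 14.0, 14.0 and 14.2 FPKM at 24 h. All deprived libraries were below the Gln-added ones, with log2 fold changes of -0.24 (limma adjusted p = 0.00315) and -0.33 (adjusted p = 0.000375). SON measured 29.4, 30.0 and 29.9 FPKM with Gln added, 32.9, 33.2 and 33.8 FPKM at 12 h and 35.4, 35.4 and 35.3 FPKM at 24 h. Its deprived libraries were all above, by 0.16 (adjusted p = 0.00112) and 0.25 (adjusted p = 4.70e-05) on the log2 scale. The difference in size between a gene and its neighbour was not tested.

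Windows of 300 bases (250 before and 50 after a RefSeq start) were searched on both strands for an E-box (CACGTG), the core of the amino acid response element (TGATGNAA), an NRF1 core (GCATGCGC) and the CCAAT box (CCAAT). Of the 10 enzyme genes 8 had a window, and ADSL and IMPDH2 had none. These 8 had 12 windows, with 3 each for GART and PAICS. A gene was counted if any of its windows held the motif, so the counts of genes and the shares of windows are unlike measures. An E-box was in windows of 3 of the 8 (ATIC, DHODH and PAICS), against 7.26% of the 35116 windows of all genes. CCAAT was in windows of 3 of the 8 (DHODH, GART and PRPS1), against 34.6% of all windows. In GART it occurred 3 times in a window, as it did at least that often in 3.26% of all windows. TGATGNAA and GCATGCGC, held by 3.62% and 3.05% of all windows, were in none of the 8. A match or its absence is a description of these letters and says nothing of binding. The E-boxes before the RefSeq starts of ATIC and DHODH are shown with 12 bases on each side, capitals marking the E-box. PAICS had its E-box at base 41 from a RefSeq start, and ATIC a further one at base 30, neither of them shown. PRPS1, PRPS2 and UMPS also fell at both times and had no E-box in their windows. Whether the motif has a part in the changes was not tested. The stretches shown are chr2:215312001-215312030 and chr16:72008573-72008602, both on the plus strand (GRCh38.p14). By GENCODE the first lies inside ATIC, which starts at 215311956, and DHODH starts within the second, at 72008588.
ATIC: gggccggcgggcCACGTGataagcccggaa
DHODH: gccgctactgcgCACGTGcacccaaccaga

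ADSL (chr22:40346461-40390463, plus strand) stood at 23.1, 24.2 and 24.0 FPKM with Gln added, 22.5, 22.6 and 22.8 FPKM at 12 h and 21.0, 19.8 and 19.4 FPKM at 24 h. The groups formed separate ranges, although at 12 h the gap to the lowest Gln-added library was small. The 12 h difference did not pass the test (log2 fold change -0.07, 95% confidence interval -0.16 to 0.02, limma adjusted p = 0.162). At 24 h the mean was 0.845 of the Gln-added mean and lower (-0.24, adjusted p = 0.00034). Of the exonic bases of ADSL 11.1% are also annotated to another gene on the same strand. How reads there were assigned is not given in the sources used here.

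ATIC (chr2:215311956-215349773, plus strand) measured 87.0, 85.1 and 85.6 FPKM with Gln added, 72.4, 74.6 and 74.7 FPKM at 12 h and 77.2, 72.8 and 74.3 FPKM at 24 h. It was lower in all deprived libraries, by about the same amount at both times. The mean was 0.860 of the Gln-added mean at 12 h (log2 fold change -0.22, SE 0.033, limma adjusted p = 0.000243) and 0.870 of it at 24 h (-0.20, adjusted p = 0.000339).

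Of the IMP dehydrogenase genes, IMPDH2 passed the test at neither time and IMPDH1 at 12 h alone. The reaction commits IMP to GMP, and IMPDH2 is known as the isoform induced in growing and transformed cells, beside the more constitutive IMPDH1. IMPDH2 (chr3:49024325-49029447, minus strand) measured 118.9, 116.3 and 120.5 FPKM with Gln added, 110.8, 123.3 and 112.3 FPKM at 12 h and 117.5, 112.1 and 111.6 FPKM at 24 h. Its groups overlapped, with the highest library of all 9 among those at 12 h. The log2 fold change was -0.04 at 12 h (95% confidence interval -0.14 to 0.06, limma adjusted p = 0.460) and -0.06 at 24 h (-0.16 to 0.04, adjusted p = 0.253), so a change beyond 0.16 in either direction lay outside both intervals. Another annotated gene on the same strand shares 32.8% of the exonic bases annotated to IMPDH2, and a gene on the opposite strand overlaps 2.58%.

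IMPDH1 (chr7:128392277-128409986, minus strand) measured 16.6, 17.7 and 16.8 FPKM with Gln added, 15.3, 15.7 and 15.4 FPKM at 12 h and 17.0, 16.4 and 15.5 FPKM at 24 h. All 12 h libraries were below the Gln-added ones, and the 24 h libraries overlapped with both other groups. The 12 h mean was 0.909 of the Gln-added mean (log2 fold change -0.14, SE 0.046, limma adjusted p = 0.0241), and at 24 h the change was -0.06 (adjusted p = 0.256). The 12 h call was lost when FPKM were rescaled to the same total in every library (adjusted p = 0.0741). It was also lost without replicate 2 of the Gln-added group (0.0948) and without replicate 1 (0.0705) or replicate 3 (0.0507) of the 12 h group. GENCODE lists 10 IMPDH1 pseudogenes that are no rows of the table.

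IMPDH2 made up 87.4 ± 0.556% of the summed FPKM of both IMPDH genes in the Gln-added group, 88.2 ± 0.457% after 12 h and 87.5 ± 0.318% after 24 h of deprivation (SD, n = 3). Its share was higher by 0.72 percentage points at 12 h without overlap (exact permutation p = 0.1), and by 0.40 points without replicate 2 of the Gln-added group or 0.46 points without replicate 2 of the 12 h group. At 24 h the groups overlapped (exact permutation p = 0.9). Summed IMPDH levels were 135.6 ± 1.67, 131.0 ± 7.08 and 130.0 ± 3.92 FPKM, with overlap of both deprived groups with the Gln-added group (exact permutation p = 0.4 at 12 h and 0.2 at 24 h).

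Both genes whose enzymes carry dihydroorotate to UMP fell. DHODH, a flavoprotein of the inner mitochondrial membrane that passes electrons from dihydroorotate to ubiquinone, was the least abundant of the 10 genes per length. DHODH (chr16:72008588-72027664, plus strand) stood at 2.57, 2.77 and 2.87 FPKM with Gln added, 2.28, 2.28 and 1.89 FPKM at 12 h and 1.92, 1.60 and 1.73 FPKM at 24 h. No deprived library reached a Gln-added one. The mean was 0.785 of the Gln-added mean at 12 h (log2 fold change -0.34, SE 0.098, limma adjusted p = 0.0117) and 0.639 of it at 24 h (-0.62, adjusted p = 0.000228). These values rest on 283 to 542 fragments per library, the fewest of the 10 genes.

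UMPS, the bifunctional enzyme that joins orotate to PRPP and decarboxylates the product, had its lowest values at 12 h. UMPS (chr3:124730433-124749273, plus strand) measured 9.38, 8.72 and 9.08 FPKM with Gln added, 7.12, 6.97 and 7.02 FPKM at 12 h and 8.12, 7.37 and 7.54 FPKM at 24 h. The Gln-added libraries were above all others, and the lowest 24 h library exceeded the highest 12 h library. The mean was 0.777 of the Gln-added mean at 12 h (log2 fold change -0.36, SE 0.051, limma adjusted p = 0.000128) and 0.847 at 24 h (-0.24, adjusted p = 0.00185).

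**Figure D3:**
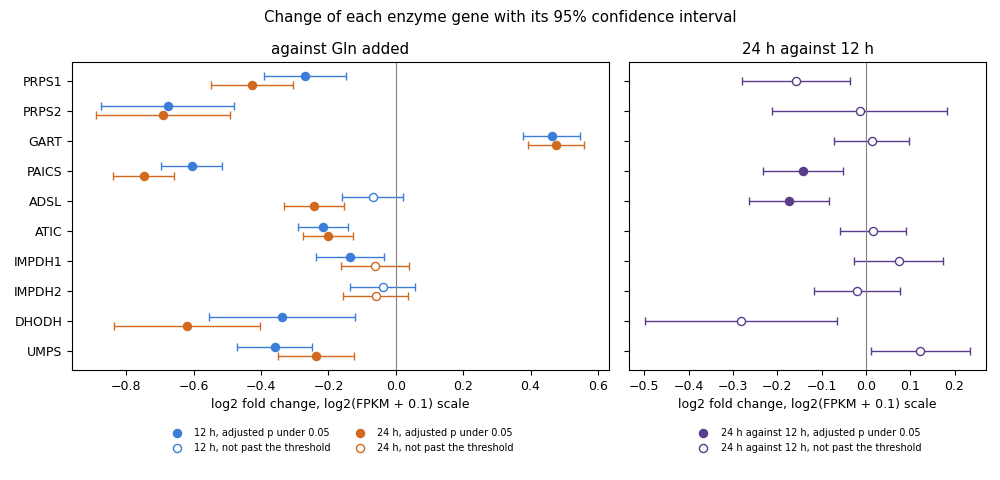
Fitted log2 fold change (horizontal axes, log2(FPKM + 0.1) scale) of each enzyme gene with its 95% confidence interval, for 12 h and 24 h against Gln added and for 24 h against 12 h, with filled points for an adjusted p under 0.05. At 12 h and at 24 h 7 genes have filled points left of 0 and GART (0.46 and 0.48) has one on the right, whereas the direct comparison of both times has filled points for PAICS and ADSL.

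Comparing 24 h with 12 h asked whether the levels in deprived cells differed between the times. No Gln-added group is given for each time, so longer deprivation and longer culture cannot be told apart. PAICS (log2 fold change -0.14, SE 0.041, limma adjusted p = 0.0327) and ADSL (-0.17, SE 0.040, adjusted p = 0.013) fell further, and the other 8 genes did not pass the test. Of all genes tested 10.5% were lower at 24 h than at 12 h and 9.57% higher. The call for PAICS was lost in 8 of 16 alternative settings, with an adjusted p of up to 0.109. Leaving out replicate 1 (0.109) or replicate 3 (0.0753) of the 12 h group or replicate 1 (0.0763) or replicate 3 (0.0568) of the 24 h group ended it. The call for ADSL was lost without replicate 3 of the 24 h group (adjusted p = 0.0532).

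Groups at both times did not overlap for 4 of the 10 genes, with PRPS1, PAICS and ADSL lower and UMPS higher at 24 h, where 34.4% of all genes tested did not overlap in either direction. PRPS1 changed by -0.16 (adjusted p = 0.067), UMPS by 0.12 (adjusted p = 0.115) and DHODH by -0.28 (adjusted p = 0.0675) on the log2 scale. None of these passed the limma threshold as fitted, and the interval of UMPS ran from 0.01 to 0.24. PRPS1 passed it without replicate 1 of the 24 h group (adjusted p = 0.0386), and DHODH passed it without that library (0.0387) or without replicate 3 of the 12 h group (0.0256). The intervals for GART (-0.07 to 0.10) and ATIC (-0.06 to 0.09) were narrow around 0, whereas that for PRPS2 was wide (-0.21 to 0.18). The median over the 10 genes was -0.02, beside 0.02 over all genes tested.

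With Gln added, the order of the 10 genes by mean FPKM, a level per length, was IMPDH2, ATIC, PAICS, PRPS1, GART, ADSL, IMPDH1, PRPS2, UMPS and DHODH. IMPDH2 was above 96.3% of the genes tested and DHODH above 25.3%. GART and ADSL were the neighbours in this order whose libraries overlapped. GART passed PRPS1 at 12 h, and at 24 h its libraries overlapped with those of PAICS, which had been 2.47 times as high with Gln added. PRPS1 and ADSL overlapped at both times, and so did PRPS2 and UMPS at 24 h. The lengths that the deposited FPKM imply, such as 4428 bases for GART and 7679 bases for PAICS, exceed those of the canonical GENCODE transcripts (3318 and 6371 bases), so the levels between genes depend on the lengths the authors assigned. Changes of a gene between groups do not.

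Further genes of nucleotide metabolism were counted in 7 lists, beside the shares and medians of all genes given above. Of the 6 amide-using enzymes 5 were lower and none higher at either time, with medians of -0.22 and -0.28 on the log2 scale. CTPS1, a CTP synthase, changed most at both times (-0.27 and -0.41), and CAD, which precedes DHODH, did not pass the test (-0.12, limma adjusted p = 0.0702, and -0.07, adjusted p = 0.264). Among 4 genes of PRPP synthetase-associated proteins and the AMP branch, 2 were lower and 1 higher at 12 h and 1 was lower and 1 higher at 24 h (medians -0.11 and -0.24). PRPSAP1 rose (0.10 and 0.16) and PRPSAP2 fell (-0.23 and -0.36), both encoding regulatory partners of the synthetases, while ADSS1 was lower at 12 h (-0.69, adjusted p = 0.0122).

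The 5 genes counted that supply GART and ATIC with formyl groups on folate all changed, 3 upward and 2 downward at each time (medians 0.85 and 1.05). The mitochondrial enzymes MTHFD2 (1.69 and 1.52), MTHFD1L (1.21 and 1.20) and SHMT2 (0.85 and 1.05) were higher at 12 h and 24 h. The cytosolic enzymes SHMT1 (-0.79 and -0.90) and MTHFD1 (-0.60 and -0.69) were lower. MTHFD1 makes the formyl folate that both GART and ATIC use.

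Of 13 salvage genes 6 were lower and 3 higher at 12 h, and 7 lower and 4 higher at 24 h, with medians of -0.11 and -0.18. TK1, the cytosolic thymidine kinase, had the lowest fold change (-1.09 and -1.39) and UPP1, a uridine phosphorylase, the highest (1.01 and 1.06). Of 13 nucleotide kinases 9 were lower at 12 h and 8 at 24 h (medians -0.35 and -0.28). NME6 was the 1 that rose (0.20 and 0.22), and NME1 at 12 h (-0.62) and NME4 at 24 h (-0.84) fell most.

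Deoxynucleotide synthesis had the lowest medians of the lists (-0.56 and -0.83), with 5 of 6 genes lower and DCTD, which deaminates dCMP, higher (0.34 and 0.45). RRM1, the large subunit of ribonucleotide reductase, fell most (-1.20 and -1.53). Of 16 breakdown and interconversion genes 9 passed the filter, of which 5 were lower and 2 higher at 12 h, and 3 lower and 4 higher at 24 h (medians -0.15 and -0.04). ADA, adenosine deaminase, fell most (-0.62 and -0.68), and the nucleotidases NT5C2 at 12 h (0.44) and NT5E at 24 h (0.52) rose most. Between 24 h and 12 h, 1 amide-using, 1 folate, 3 salvage, 3 kinase and 3 deoxynucleotide genes were lower, and 1 folate and 3 breakdown genes were higher.

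**Figure D4:**
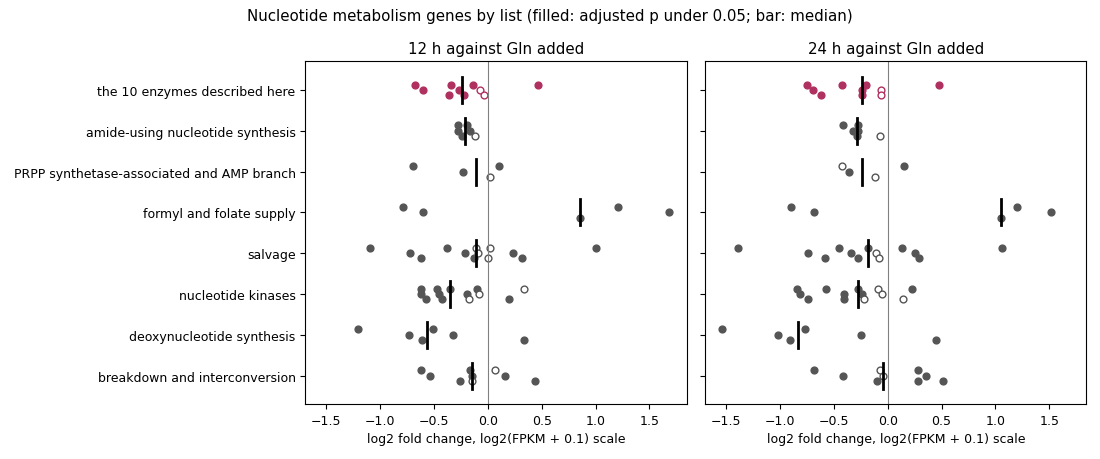
Log2 fold change (horizontal axes, log2(FPKM + 0.1) scale) of every tested gene of the 10 enzymes and of the 7 further lists at 12 h and 24 h against Gln added, with filled points for an adjusted p under 0.05 and a bar at each median. The 10 enzymes have a median of -0.24 at both times, the folate genes split into 3 rising and 2 falling, and the deoxynucleotide genes have the lowest medians (-0.56 and -0.83).

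Patterns across the 9 libraries were also compared by Pearson correlation of log2 values, as a description, since the points share 3 groups. GART was negatively correlated with each of the other 9 genes, from -0.5 with IMPDH2 to -0.972 with PAICS. The highest values were between ATIC and UMPS (0.946) and between PRPS2 and PAICS (0.944), and the lowest positive one was between ADSL and IMPDH1 (0.326). Among genes averaging 10 FPKM or more, the nearest pattern to GART was that of SEC14L1 (0.996), to PAICS that of NREP (0.998), to PRPS1 that of LITAF (0.992) and to PRPS2 that of COBLL1 (0.991). ATIC was nearest to RPA2 (0.991), ADSL to KNSTRN (0.979), DHODH to PSMB3 (0.99) and UMPS to SSR4 (0.989). IMPDH1 (nearest ACOX2, 0.963) and IMPDH2 (nearest SMYD5, 0.909) had the least close matches of the 10.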

How the data were processed

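Total RNA of 9 HepG2 libraries was sequenced in 3 groups of 3. FPKM values were deposited by the authors, 1 per gene in each library. The methods name STAR on GRCh38 and DESeq2, and the submitters' processing notes add HTSeq and R 3.2.0; the annotation is not given in the sources used here. The labels name another library kit than the strand-specific kit of the methods, so use of strand in counting is not known. No further scaling of FPKM between libraries is stated. Their steps gave whole fragments for 100% of genes (within 0.02 fragments), from which depth was taken.

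Genes averaging 0.5 FPKM or more (11880) were tested with limma 3.58.1 in R 4.3.3 (lmFit, eBayes with a trend) on log2(FPKM + 0.1), all 3 groups being fitted jointly, and p-values were adjusted by Benjamini-Hochberg across the genes tested. For single values, a two-sided exact permutation test was used, which with 3 libraries a group cannot give a p below 0.1. The code was tested on simulated data. Alternatives changed the pseudocount, filter, scaling, fit, replicate block, test and libraries used. The members and lists were chosen with earlier results of these data known. Of the further lists, genes were named where a count of 5 or fewer rested on them or where they moved most, and 1 gene of these lists is not reported here. Positions are from GENCODE v44 and promoter sequences from RefSeq (GRCh38.p14).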

Additional observations from a re-analysis of the deposited data

Results flagged for a closer look

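A pair of the enzyme genes differed between the deprived cells at 24 h and at 12 h, by the limma contrast of these groups. Both times were set against the same Gln-added libraries, so time in culture is not separated from deprivation. The log2 change at 24 h minus that at 12 h was -0.14 for PAICS (-0.75 against -0.61, adjusted p = 0.0327) and -0.17 for ADSL (-0.24 against -0.07, adjusted p = 0.013). The 24 h libraries of both genes were below all 12 h libraries. Without replicate 3 of the 24 h group neither difference passed the threshold (adjusted p = 0.0568 and 0.0532). The call for PAICS was kept in 8 of 16 alternative settings and that for ADSL in 15 of 16.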

How the results depend on the processing

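Of 660 values recomputed for 48 results, 628 kept their direction and their side of the threshold, or stayed within the spread or 1.5 times of a count. The number of enzyme genes called was 7 to 8 at 12 h and 8 in every setting at 24 h. For 24 h against 12 h it was 2 as fitted and 1 with no filter on low values, with FPKM rescaled to the same total, with only the 2 groups compared in the fit and with eBayes without a trend, and without single libraries it ran from 0 (without replicate 3 of the 24 h group) to 3. With the replicate number as a block it was 3, with PRPS1 called (adjusted p = 0.0357), and the replicate block gave 8 at 12 h and 8 at 24 h. The deviations of same-numbered libraries did not go together in every pair (correlations -0.136 to 0.283 over 9 pairs), so the numbers are not taken to pair them. Median-ratio scaling also brought PRPS1 past the threshold (adjusted p = 0.033). No called change reversed. Among the uncalled changes of single genes, directions reversed between 12 h and 24 h. Rescaling to the same total gave 0.00017 for PRPS2, and median-ratio scaling gave -0.0071 for GART and -0.0044 for ATIC. Leaving out single libraries gave -0.12 to 0.090 for PRPS2, -0.0094 to 0.039 for GART, -0.050 to 0.028 for IMPDH2 and -0.0078 to 0.035 for ATIC. Differences of isozyme shares and sums that did not stand out from the spread also turned, namely the IMPDH2 share at 24 h against Gln added (-0.301 to 0.191 points), and, at 24 h against 12 h, the PRPS2 share (-0.331 to 3.98 points) and the IMPDH sum (-3.34 to 3.15 FPKM). The cause was not tested. Counts over all genes were 6455 to 7372 at 12 h, 7034 to 7882 at 24 h and 1652 to 2639 between the times. Depth limits DHODH most among the 10 genes, with as few as 283 fragments in a library.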
